A study of Mus musculus with 4 samples.

Results

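Toll-like receptors, their co-receptor Ly96 and the adaptor Myd88 were examined in CCR6+ group 3 innate lymphoid cells (ILC3). The set holds 10 genes: Tlr1, Tlr2, Tlr3, Tlr4, Tlr6, Tlr7, Tlr9, Tlr12, Ly96 and Myd88. They were taken by name, each was read by 1 probe set annotated with that gene alone, and together they are 10 of 19938 named genes on the array. Total RNA was measured on 4 microarrays, numbered 1 to 4. All 4 samples form 1 group: mesenteric lymph node cells of naive C57BL/6 mice, sorted as CD127+, CD90.2+, CCR6+ and ST2-. There is no second cell type, stimulus or genotype to compare with. The labels used here give no age, and they do not say whether the arrays held separate mice, pools or sorts, so the spread between arrays may be partly technical.

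Toll-like receptors are membrane proteins that bind conserved molecules of microbes. TLR2 pairs with TLR1 or TLR6 and binds bacterial lipopeptides, TLR4 together with the Ly96 product MD-2 binds lipopolysaccharide, and TLR3, TLR7 and TLR9 sit in endosomes and bind nucleic acids. Most of these receptors signal through MyD88, which recruits IRAK kinases and TRAF6 and leads to NF-kappaB and MAP kinase activation, while TLR3 uses the adaptor TRIF. MyD88 also serves receptors of the interleukin-1 family, among them that for interleukin-18. B cells, macrophages and dendritic cells are well known for Toll-like receptor expression, and they live in the same lymph node.

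Of the 10 genes, 6 were called above background: Tlr1, Tlr2, Tlr4, Tlr9, Ly96 and Myd88. Tlr3, Tlr6, Tlr7 and Tlr12 were not called. Of all named genes 46.2% were called, so the share of 6 in 10 lies near the background. The values are log2 levels from RMA (robust multi-array average), and each gene was ranked against 1237 genes of sensory receptor families (olfactory, vomeronasal, trace amine, bitter taste). The detection p is an exact rank p, the share of these background genes whose mean reached that of the gene (1 added to both counts), with Benjamini-Hochberg adjustment over the 19938 genes and a call when under 0.05. The median level of the 10 genes was 6.70, against 6.16 for all named genes and 4.25 for the background genes. Because binding differs between probe sets, levels are not compared between genes as amounts of RNA.

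The calls of the receptors lay in a range that genes of other organs also reached. Of 16 such genes 6 were called, against 46.2% of all named genes. Among these were Mbp, known from myelin, at 7.98 ± 0.06 (SD, n = 4, and every later level has the same n), Krt10, a skin keratin, at 7.77 ± 1.03 and Apoa1, a liver apolipoprotein, at 7.24 ± 0.11. The 5 called genes other than Myd88 had means between 6.70 and 7.22 and lay below the highest of them. Myd88, at 8.04, was the 1 gene of the set with a mean above all 16, by a narrow margin over Mbp, and 19.4% of named genes passed that level. The level was set by Mbp alone, and the order held for the mean but not on every array. Myd88 was below Mbp on arrays 1 and 3, at 7.60 and 7.63 against 8.03 and 7.96. On arrays 2 and 4 Myd88 was above, at 8.43 and 8.49 against 7.91 and 8.03. The labelled cell type was also checked: all 10 measured ILC3 genes were called, against 46.2% of all named genes. Il7r, which encodes CD127, was at 12.56 ± 0.06 and Thy1, which encodes CD90, at 11.36 ± 0.15.

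**Figure D1:**
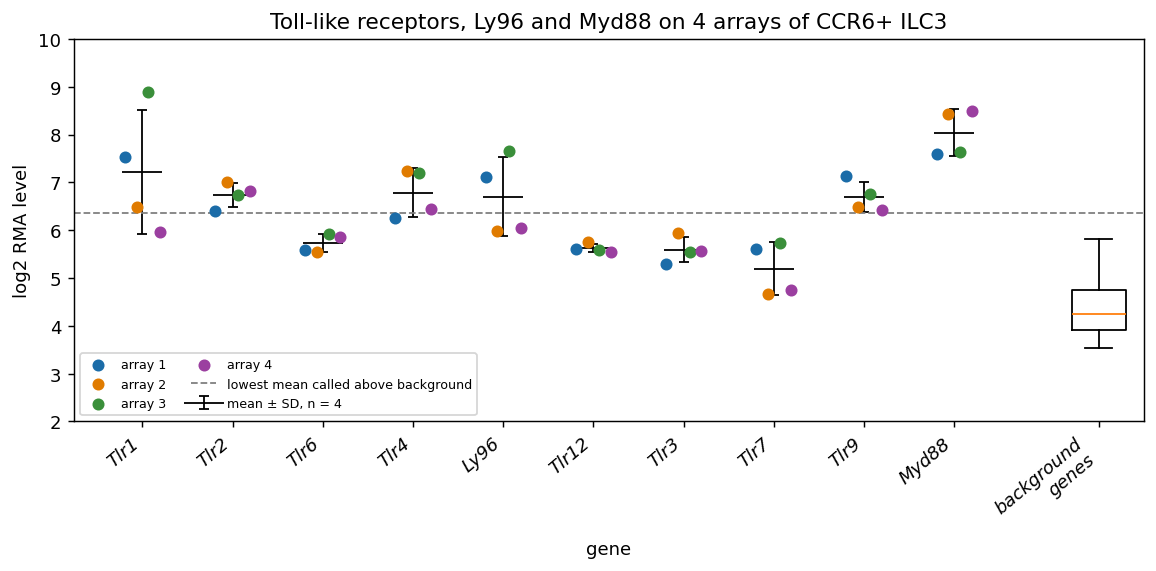
The log2 RMA level (y axis) of the 10 genes (x axis) is shown as a coloured point per array, with the mean and SD of 4 arrays in black and, at the right, a box (quartiles) with whiskers (5th and 95th percentile) for the means of 1237 background genes. The dashed line is the lowest mean called above background, 6.37. Myd88 lies well above that line on every array, while the Tlr1 and Ly96 points straddle it.

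Myd88, the shared adaptor, was measured at 7.60, 8.43, 7.63 and 8.49 on arrays 1 to 4. Arrays 2 and 4 were high and arrays 1 and 3 low, with a gap between the pairs and almost none within them. Its mean was 8.04 ± 0.49, and 3 of the 1237 background genes were at or above it (adjusted exact detection p = 0.0143). The highest array stood 1.85-fold over the lowest. Myd88 stayed called when any 1 array was left out, with adjusted exact detection p between 0.0132 and 0.015.

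The surface receptors of the TLR2 group differed in whether they were called. Tlr1, whose product pairs with TLR2, was at 7.53, 6.48, 8.89 and 5.97 on arrays 1 to 4, with a mean of 7.22 ± 1.29 (adjusted exact detection p = 0.0221). Array 3 was far above the others and array 4 was lowest, a 7.55-fold span, and without array 3 the mean was 6.66 and still called (adjusted exact detection p = 0.0354). Only 0.109% of all genes above background had a larger SD than Tlr1. Tlr2 was at 6.40, 7.01, 6.73 and 6.82, with a mean of 6.74 ± 0.25 (adjusted exact detection p = 0.0333), so the 4 arrays lay close together with array 1 lowest. Tlr6, the other partner of TLR2, was at 5.59, 5.55, 5.93 and 5.86 and was not called at a mean of 5.73 ± 0.19, with 70 background genes at or above it. Tlr6 lies next to Tlr1 in the RefSeq gene order, and array 3 was highest and array 2 low for both, while array 4 was lowest for Tlr1 and among the upper pair for Tlr6.

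The lipopolysaccharide receptor and its co-receptor were both called, and their high arrays matched in part. Tlr4 was at 6.25, 7.25, 7.19 and 6.45 on arrays 1 to 4, with a mean of 6.78 ± 0.51 (adjusted exact detection p = 0.0332). Arrays 2 and 3 were high and arrays 1 and 4 low. Ly96, whose product MD-2 holds the lipid part of lipopolysaccharide for TLR4, was at 7.12, 5.98, 7.65 and 6.04. Here arrays 1 and 3 were high and arrays 2 and 4 low, so array 3 was high and array 4 low for both genes, while array 2 was the highest for Tlr4 and the lowest for Ly96. The mean of Ly96 was 6.70 ± 0.82 (adjusted exact detection p = 0.0333), and its SD was exceeded by 0.804% of the genes above background. Without array 3 Ly96 was no longer called, at a mean of 6.38 and an adjusted exact detection p of 0.0524.

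Of the nucleic acid receptors, Tlr9 alone was called. Tlr9, the receptor for unmethylated CpG DNA, was at 7.13, 6.49, 6.75 and 6.43 on arrays 1 to 4, with a mean of 6.70 ± 0.32 (adjusted exact detection p = 0.0333), and array 1 was highest. Tlr7, the receptor for single-stranded RNA, was at 5.61, 4.67, 5.73 and 4.76 with a mean of 5.19 ± 0.56, and 169 background genes were at or above it. Arrays 1 and 3 were again high and arrays 2 and 4 low, but Tlr7 was below the 95th percentile of background on all 4 arrays. Tlr3, the receptor for double-stranded RNA, was at 5.30, 5.93, 5.55 and 5.57 with a mean of 5.59 ± 0.26, and passed that percentile on array 2 alone. Tlr12, which in mice recognises profilin of Toxoplasma, was at 5.60, 5.76, 5.59 and 5.55 with a mean of 5.63 ± 0.09 and had the smallest SD of the 10 genes. Among the other Toll-like receptors, Tlr8 was at 4.60 ± 0.01 and Tlr13 at 4.60 ± 0.10, both uncalled under either test (detection or limma) and with 0 unadjusted p under 0.05, and Tlr5 and Tlr11 are not analysed here.

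Promoter sequence is shown for 3 genes that differed in which arrays were high: Tlr1 and Tlr9, higher on arrays 1 and 3, and Myd88, higher on arrays 2 and 4. Each line gives the 250 bases before the annotated start, 5′ to 3′ on the gene's strand, from RefSeq on build GRCm38.p6. The windows are chr5:64933559-64933808 (minus strand) for Tlr1, chr9:106222348-106222597 (plus strand) for Tlr9 and chr9:119340019-119340268 (minus strand) for Myd88. For Tlr1, which has a pair of annotated starts, the window with the marked motif is shown. Capitals mark a PU.1 core (GAGGAAGT) in Tlr1, an octamer (ATTTGCAT, here on the other strand) in Tlr9 and an interferon response element core (GAAANNGAA) in Myd88. The marked motifs were chosen after the sequences had been searched, and other matches in the Tlr9 and Myd88 windows stay in lower case.
Tlr1: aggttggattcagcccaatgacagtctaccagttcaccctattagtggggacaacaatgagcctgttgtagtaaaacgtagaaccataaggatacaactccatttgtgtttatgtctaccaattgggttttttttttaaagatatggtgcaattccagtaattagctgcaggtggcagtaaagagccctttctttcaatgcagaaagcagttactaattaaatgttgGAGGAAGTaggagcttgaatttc
Tlr9: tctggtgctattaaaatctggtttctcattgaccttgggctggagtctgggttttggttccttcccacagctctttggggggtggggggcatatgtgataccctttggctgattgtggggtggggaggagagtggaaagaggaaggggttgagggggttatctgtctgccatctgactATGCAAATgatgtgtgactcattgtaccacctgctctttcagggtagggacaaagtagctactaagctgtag
Myd88: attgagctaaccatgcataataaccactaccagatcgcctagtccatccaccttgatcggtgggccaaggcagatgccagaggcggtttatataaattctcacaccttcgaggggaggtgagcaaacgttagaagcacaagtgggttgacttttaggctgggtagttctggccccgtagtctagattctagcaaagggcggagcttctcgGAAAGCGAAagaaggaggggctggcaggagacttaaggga

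The RefSeq table held 9 promoter windows for 7 of the 10 genes, and Tlr4, Tlr7 and Ly96 had none there. Both strands were searched for 10 motifs. The PU.1 core was found in 1 of the 9 windows, that of Tlr1, and in 2.44% of all 32851 windows in the table. The octamer was found in the Tlr9 window and in 1.6% of all windows. The interferon response element core was found in the windows of Myd88 and Tlr6 and in 7.13% of all windows. In Myd88 it overlapped a STAT site (TTCNNNGAA), which was also found in the second Tlr1 window and in 7.02% of all. An NF-kappaB site was found for Tlr2 and Tlr3 and in 7.25% of all windows. An AP-1 site (TGANTCA) was found for Tlr9 and in 6.75% of all, and a GC box (GGGCGG) for Tlr2 and Myd88 and in 32.7% of all. The letters of a TATA box (TATAAA) were found for Tlr6 and Myd88 and in 12.4% of all. They lay on the other strand, beginning 180, 150 and 109 bases before the start in Tlr6 and 164 bases before it in Myd88. No member window held a cAMP response element (TGACGTCA; 1.55% of all) or an E-box (CAGCTG; 13% of all). These matches describe the letters of each window and were not tested against the array values.

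The spread between arrays was then set beside that of other genes. The median SD was 0.40 log2 units over the 10 genes and 0.11 over all named genes, and 0.50 over the 6 called genes against 0.17 over all genes called. The 3 genes of the set with the largest SD were Tlr1, Ly96 and Tlr7. Among the called genes Tlr2 and Tlr9 were the steadiest, and 25.9% and 15.5% of all genes called had a larger SD than these.

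**Figure D2:**
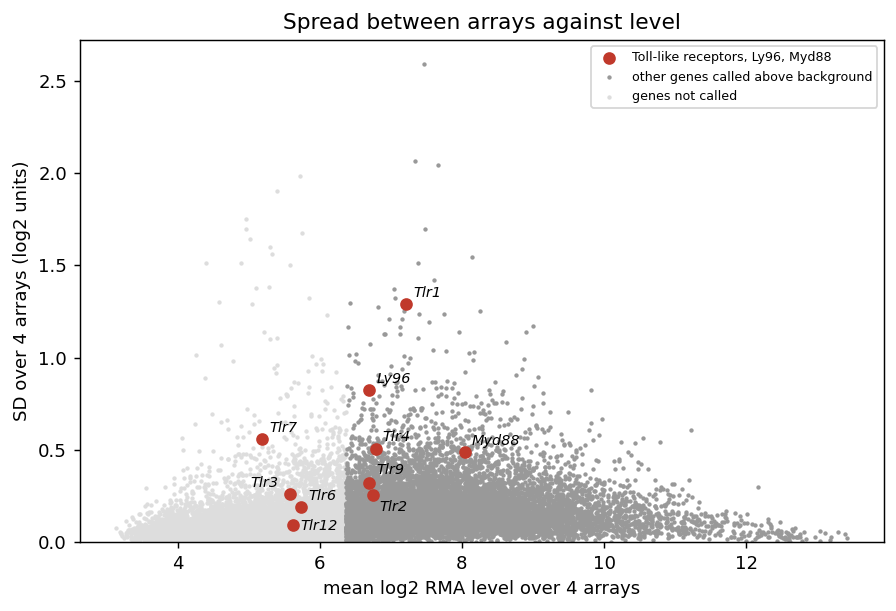
Each point is a gene, with its mean log2 RMA level over 4 arrays on the x axis and its SD over the arrays on the y axis; the 10 genes of the set are red, other genes called above background grey and genes not called light grey. Tlr1 at an SD of 1.29 and Ly96 at 0.82 lie near the upper edge of the cloud, and Tlr12 at 0.09 lies within it.

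The arrays on which receptors were high were shared by several genes. Tlr1, Tlr7, Tlr9 and Ly96, 4 of the 10, had both array 1 and array 3 above both array 2 and array 4, an order found in 13% of all named genes. Tlr2, Tlr3 and Myd88 had the reverse order, found in 17.5% of all named genes. Tlr2 and Tlr3 met it narrowly, with array 4 at 6.82 and 5.57 against array 3 at 6.73 and 5.55. Tlr3 and Tlr7 were not called. These orders were picked out after the values were seen. B cell markers had the first order as well: 11 of 14 measured markers showed it, and 0 showed the reverse. Of 9 T cell markers 5 showed it too and 1 the reverse, while of 10 ILC3 genes 1 showed it and 4 had the reverse order, that of Myd88. The mean level of the B cell list was 8.40, 7.62, 8.66 and 7.47 on arrays 1 to 4. Of its 14 genes 13 were called, against 46.2% of all named genes. Ms4a1, which encodes CD20, was at 9.10, 7.81, 9.45 and 7.95, so no array was without B cell transcripts. The part of B and T cells in the levels of Tlr1, Tlr7, Tlr9 and Ly96 was not tested. In sorted bulk cells, more cells of another type and more RNA per cell cannot be told apart.

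The genes most alike in profile to Tlr1, the gene of the set with the largest SD, were Igkv10-96, Spib, Ly6d, Rasgrp3 and Cd55. Likeness was the root mean square distance over the 4 arrays after centring each gene on its mean, and it lay between 0.257 and 0.329 log2 units for these 5. Igkv10-96 is an immunoglobulin kappa variable gene and Spib encodes an ETS factor of B cells and plasmacytoid dendritic cells. Spib was at 7.27, 6.70, 8.55 and 6.21 on arrays 1 to 4. For Ly96 the same measure, applied after its values were seen, gave Ms4a1 first, at a distance of 0.0712, then H2-Ob, Gm10825, Bank1 and Cd22. H2-Ob encodes a class II chain known from B cells, and Bank1 and Cd22 are B cell signalling genes.

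Tlr4 and Myd88 had other neighbours by this measure, again taken after their values were seen. Cxcr3, a chemokine receptor gene, was nearest to Tlr4 at a distance of 0.0835, with 6.14, 7.28, 7.02 and 6.27 on arrays 1 to 4, and Mtfmt, Imp3, Chchd7 and Prdx2 followed. Nearest to Myd88 were Zfand5 at 0.0647 and Ifitm3, an interferon-induced antiviral gene, at 0.0805, then Supt3, Calhm5 and Elovl1. Ifitm3 was at 9.91, 10.83, 9.91 and 10.67, with arrays 2 and 4 high as for Myd88. With 4 arrays many genes can share an order, and these lists are a description of these samples.

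**Figure D3:**
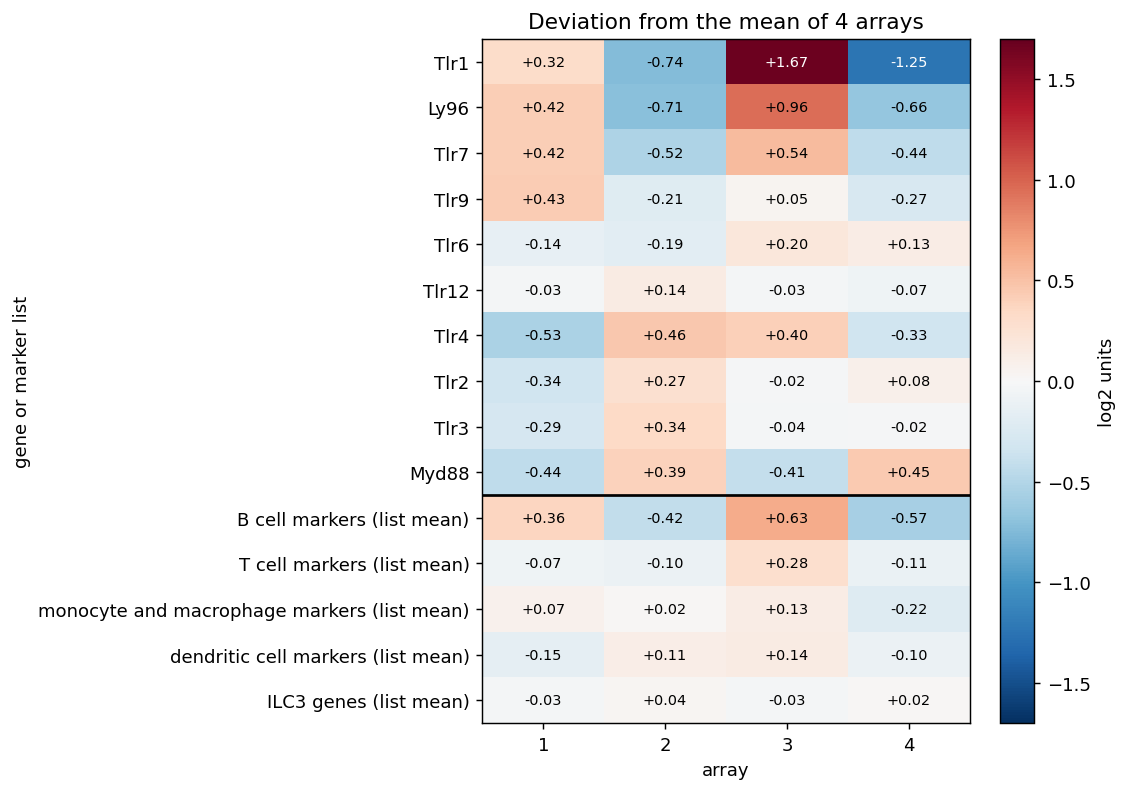
Columns are arrays 1 to 4 and rows are the 10 genes, above the line, and the means of 5 marker lists, below it; colour and number give the log2 deviation from the row's mean over 4 arrays. Tlr1 (+1.67 on array 3, -1.25 on array 4) and Ly96 follow the signs of the B cell list, Myd88 has the opposite signs, and the ILC3 list moves by at most 0.04.

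Markers of myeloid cells, which also carry Toll-like receptors, were mostly not called. Of 11 monocyte and macrophage markers 2 were called by the detection test, against 46.2% of all named genes. By limma 3 were called, and 5 had an unadjusted detection p under 0.05. The list averaged 5.83, 5.78, 5.88 and 5.53 on arrays 1 to 4. Lyz2, a lysozyme gene, was at 9.11, 7.76, 8.51 and 7.50, and Cd68, a lysosomal protein gene of macrophages, at 6.45, 7.51, 7.09 and 6.72. Cd68 was high on arrays 2 and 3, as Tlr4 was, and Lyz2 on arrays 1 and 3, as Ly96 was. Of 12 dendritic cell markers 6 were called, near the 46.2% of all named genes, and the list averaged 6.28, 6.53, 6.56 and 6.32, somewhat higher on arrays 2 and 3. Fscn1, an actin-bundling gene of mature dendritic cells, was at 6.66, 7.69, 8.16 and 6.82, while Bst2 was highest on array 4, at 9.62, 9.78, 9.66 and 10.08. The order of Tlr4, both array 2 and array 3 above both array 1 and array 4, was found in 15.3% of all named genes. It was found in 4 of the 12 dendritic cell markers, 6 of the 11 monocyte and macrophage markers and 4 of the 10 neutrophil markers. These counts were made after the values were seen. Of those 6 monocyte and macrophage markers Cd68 was called, while Adgre1, C1qa, Csf1r, Ms4a7 and Mrc1 were not. Of those 4 dendritic cell markers Batf3, Fscn1 and Ccl22 were called and Flt3 was not. Of 10 neutrophil markers 0 were called under either test (detection or limma), and 1 had an unadjusted p under 0.05. The part of these cells in the Tlr4 and Ly96 levels was not tested.

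Of 10 measured genes listed as chaperones, co-receptors and related partners of Toll-like receptors, 9 were called, against 46.2% of all named genes. Hsp90b1, the endoplasmic reticulum chaperone that folds these receptors, was at 11.63 ± 0.04, and Unc93b1, which carries the endosomal receptors out of the endoplasmic reticulum, at 8.82 ± 0.30. Ly86, the MD-1 partner of the TLR4-like protein RP105, was at 9.23 ± 0.62. Cd180, which encodes RP105 and is known from B cells, was at 9.15, 8.45, 9.16 and 7.96 on arrays 1 to 4, high on the same arrays as Tlr1 and the B cell list. Lbp, the lipopolysaccharide-binding protein gene made mainly in liver, was not called at 5.63 ± 0.15.

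Lists of genes next to MyD88 differed in the share called, against 46.2% of all named genes. Of 4 other adaptors with TIR-type signalling roles 2 were called, near that share. These were Ticam1, which encodes the TLR3 adaptor TRIF, at 8.07 ± 0.25 and Pik3ap1, the PI3 kinase adaptor BCAP, at 7.97 ± 0.37. Tirap, which bridges TLR2 and TLR4 to MyD88, was not called at 6.12 ± 0.13 (adjusted exact detection p = 0.0661), although each of its 4 values passed the 95th percentile of background. Sarm1, a TIR protein known mainly from neurons, was not called at 5.04 ± 0.10. Of 11 genes of the Myddosome and TRAF6 complex 9 were called. Tab2, a ubiquitin-binding partner of the kinase TAK1, was at 11.50 ± 0.11, Ube2n, the ubiquitin-conjugating enzyme used by TRAF6, at 9.51 ± 0.11, Peli1, an IRAK ubiquitin ligase, at 9.26 ± 0.13 and Map3k7, which encodes TAK1, at 8.68 ± 0.14. Tab1 at 5.88 ± 0.11 and Peli2 at 5.50 ± 0.13 were not called, and Irak4 is not analysed here.

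All measured genes of the downstream branches and all measured inhibitors were called, against 46.2% of all named genes. Traf3 of the interferon branch, Chuk, Nfkb1 and the inhibitor Lyn are not analysed here. All 5 measured genes of the interferon branch were called: the kinases Tbk1 at 8.71 ± 0.16 and Ikbke at 8.12 ± 0.06, and the factors Irf5 at 8.27 ± 0.25, Irf3 at 8.22 ± 0.18 and Irf7 at 7.77 ± 0.23. All 8 measured NF-kappaB and MAP kinase genes were called, with Rela at 9.35 ± 0.21, Rel at 9.16 ± 0.41, Mapk14, which encodes p38 alpha, at 8.63 ± 0.27 and Map3k8 at 8.59 ± 0.14. Rel was at 9.54, 8.81, 9.49 and 8.81 on arrays 1 to 4, so arrays 1 and 3 were high. Of the 64 pathway genes outside the set 14 had this order, 21.9% against 13% of all named genes, and 9 the reverse. All 11 measured inhibitors of the pathway were called. Nfkbia, the NF-kappaB inhibitor, was at 10.41 ± 0.04, the deubiquitinase gene Cyld at 9.67 ± 0.12, Nfkbib at 9.36 ± 0.22 and Tank at 9.30 ± 0.13.

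Among the other receptors that use MyD88, 3 of 4 measured were called. Il18r1 and Il18rap, the chains of the interleukin-18 receptor, were at 11.41 ± 0.11 and 9.50 ± 0.03, and Il1rl2, a receptor for interleukin-36, at 7.04 ± 0.13. Il1rap, the shared accessory chain, was not called at 5.79 ± 0.44, and Il1r1 is not analysed here. Of 11 other pattern recognition receptors and partners 6 were called, near the 46.2% of all named genes. Aim2, a DNA sensor, was at 9.90 ± 0.12, Ddx58, which encodes the RNA sensor RIG-I, at 9.53 ± 0.07, Zbp1, a sensor of Z-form nucleic acid, at 9.14 ± 0.14 and Mavs, the adaptor of RIG-I, at 8.04 ± 0.15. Nod2, a sensor of muramyl dipeptide, was not called at 6.00 ± 0.10, nor was Cgas at 5.51 ± 0.03. Together 53 of the 64 pathway genes outside the set were called, against 46.2% of all named genes, with a median level of 8.01 against 6.16. The median SD of the called genes was 0.17 both for the pathway and for all named genes. Of these 64, 32 had a mean above all 16 genes of other organs, against 19.4% of all named genes. Of the 10 measured Toll-like receptors, Tlr8 and Tlr13 included, 4 were called, near the 46.2% of all named genes.

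**Figure D4:**
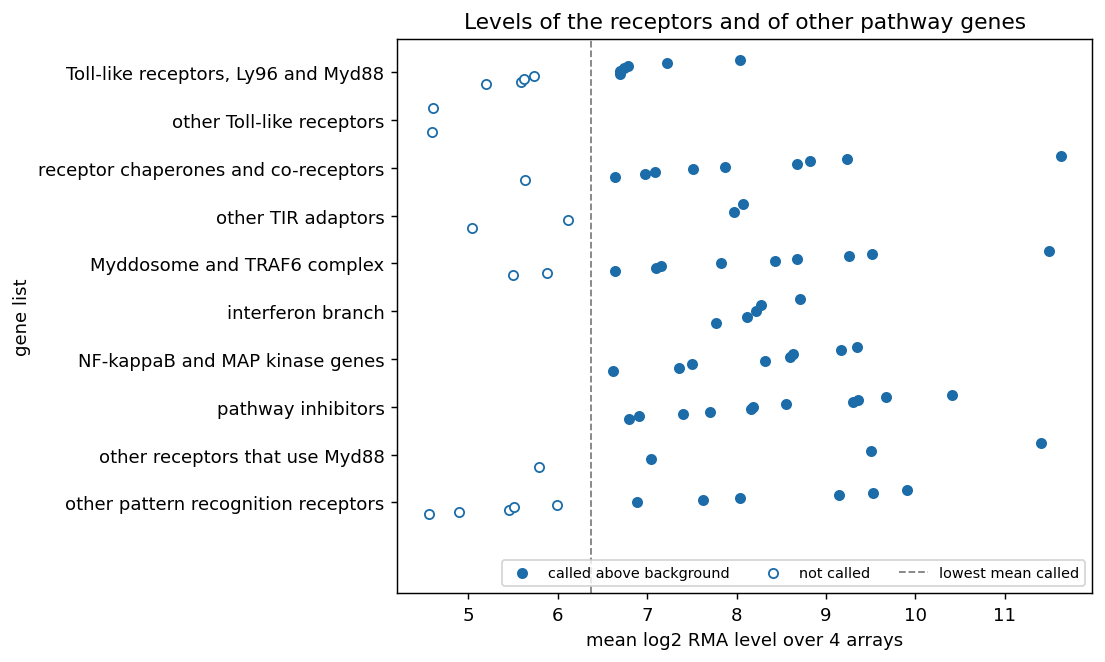
The mean log2 RMA level over 4 arrays (x axis) is shown for each gene, in rows for the 10 genes of the set and 9 other lists; filled points were called above background, open points were not, and the dashed line is the lowest mean called, 6.37. Interferon branch genes, NF-kappaB and MAP kinase genes and inhibitors lie wholly to the right of the line, while the Toll-like receptors lie on both sides of it.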

How the data were processed

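Gene expression was measured on 4 arrays of 1 group. The authors deposited log2 values per probe set made with RMA, a method of background correction, between-array normalization and probe summary, per the submitters' processing notes; no source used here gives its version or the genome build. Scanner files were not used here, so that step was not varied. Of 35556 probe sets, 21789 had 1 gene symbol in GEO's platform annotation, 1621 had several and were left unnamed, and 12146 had none listed. Symbols were updated through Entrez identifiers of the RefSeq table of GRCm38.p6, which held 21698 of these probe sets. The highest-mean probe set stood for each gene, and 0 columns belonged to other samples.

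Each gene's mean was ranked against 1237 background genes, of which 27 were themselves called, and the exact rank p, at smallest 0.000808, was adjusted over 19938 genes. The calculations ran in Python 3.11.15 with pandas 2.3.3 and were tested on simulated data. As alternatives, limma 3.58.1 tested each gene against the 95th percentile of background, all 4 values were required to pass that percentile, olfactory receptors alone served as background, probe sets of a gene were averaged, arrays were centred on their medians, and each array was left out in turn. Named pathway genes were up to 4 called and up to 2 not called per list with the highest means. The genes of the set and the lists were chosen with earlier results of these data known, and a further rule, a mean above the 16 genes of other organs, was added after the data were seen. Promoter motifs were chosen after the sequences had been searched. No pair of arrays was identical, with r across all probe sets from 0.964 to 0.971 in 6 pairs.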

Additional observations from a re-analysis of the deposited data

Results flagged for a closer look

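Of the 49 named genes, 3 had 1 array far from the other 3 by Dixon's test at the 95% level, and chance alone gives about 1 in 20. None of these 3 belongs to the set of 10. Il1rl2 was at 7.24 on array 3, against 6.97 on the next highest array. Tlr13 was at 4.75 on array 2, against 4.55 on the next highest array, at a level that was not called. Il1rl2 had equal values on arrays 2 and 4, and Tlr13 on arrays 3 and 4. With such ties the rate of 1 in 20 may not apply. Hsp90b1 was at 11.69 on array 3, against 11.61 on the next highest array, a small step for a gene with an SD of 0.04.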

How the results depend on the processing

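The count of 6 called among the 10 genes was 5 to 6 when 1 array was left out, with Ly96 lost without array 3 as the 1 change, and 6 with centred arrays, averaged probe sets, olfactory background, the percentile rule or limma. The count over all named genes lay between 8835 and 9570 with 1 array left out and was 10840 when all 4 values had to pass the 95th percentile of background, against 9203 as reported. Of the pathway genes, 53 of 64 were called with any 1 array left out, 54 by the percentile rule and 55 by limma, with Tirap and Nod2 gained by both and Cd36 lost under the percentile rule. The rule added after the data were seen, a mean above the 16 genes of other organs, left 1 of the 10 genes (Myd88), 32 pathway genes and 3868 of all genes. It ended the calls of Tlr1, Tlr2, Tlr4, Tlr9 and Ly96. The median SD of the 10 genes was 0.33 to 0.44 with 1 array left out. Of 49 named genes 40 kept their call under all 10 alternatives. The 4 arrays of 1 group and signal close to background limit what can be seen for the receptors. No paired analysis was possible because there is 1 group.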

Other observations

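Further regulators of the pathway, picked here after their values were seen, were also measured. Irak1 and Irak2, kinases recruited through MyD88, were at 7.83 ± 0.35 and 8.43 ± 0.24 (SD, n = 4), and both were called. Irak3, the inhibitory member of the same kinase family, was at 7.91, 6.91, 7.63 and 7.14 on arrays 1 to 4, with arrays 1 and 3 high. Sigirr, a TIR receptor that restrains signalling, was at 8.19 ± 0.10, Tnfaip3, which encodes the ubiquitin editor A20, at 8.16 ± 0.19 and Tollip at 6.91 ± 0.17. Cd36, a scavenger receptor that can assist TLR2, was at 5.65, 7.64, 7.51 and 7.13. Array 1 stood apart on the low side, below the 95th percentile of background. Tlr2 was also lowest on array 1, as were Tlr3, Tlr4 and Myd88. Of 9 T cell markers 7 were called, against 46.2% of all named genes. Of 10 markers of NK cells and ILC1 5 were called, near the 46.2% of all named genes. All 9 housekeeping genes were called.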
